A study of Mus musculus with 13 samples.

Results

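The genes described here carry fatty acids into skeletal muscle and through storage and oxidation. They form a list of 34 genes: 5 for uptake, 3 for activation and hydrolysis of acyl-CoA, 4 of the lipid droplet, 5 of the carnitine shuttle, 12 of mitochondrial and peroxisomal beta-oxidation, 3 of electron transfer and 2 uncoupling proteins. Membership rests on function and no measured value enters it, but the list was drawn up with earlier results of these data known. Of the 34 genes, 30 had a probe set annotated with that gene alone, and all 30 exceeded the filter on dim genes, so each was tested among 10411 genes. Acsl1, Hadha and Ucp2 had no such probe set in the annotation used, and Etfb shared its probe set with a second gene, so these 4 were not analysed here.

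The arrays hold quadriceps muscle RNA of 13 male C57Bl/6 mice aged 4 months and fed standard chow, with 1 array per mouse. The groups were C (n = 3), SKM-KO (n = 3), Wt (n = 3) and SKM-Tg (n = 4), and replicate numbers only name the arrays. The study set out to examine ablation and gain of function of DOR, an earlier name of Trp53inp2, in skeletal muscle. SKM-KO was read as the ablation and SKM-Tg as the gain of function. The labels do not say which control group belongs to which line. Going by the names, SKM-KO was set against C, and SKM-Tg against Wt. The promoter of the transgene, the means of ablation and the alleles that the controls carry are not given in the sources used here. Values are log2 signals from Affymetrix perfect-match arrays, on which a difference of 1 is a doubling, and the brightest probe set stands for each gene. An array has no read depth, so the number of arrays limits the precision.

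Long-chain fatty acids reach a muscle fibre after lipoprotein lipase frees them from circulating triglyceride, and CD36 and related transporters take them up. They are bound by a small carrier protein, activated to acyl-CoA, and either stored in lipid droplets or passed across the mitochondrial membranes as carnitine esters. Beta-oxidation then shortens the chain step by step, and the electron transfer flavoprotein delivers the electrons of its dehydrogenases to the respiratory chain. Many of these genes are known targets of the PPAR nuclear receptors and of the coactivators that work with them, and oxidative fibres hold more of the pathway than glycolytic fibres. DOR is known as an autophagy protein and as a coactivator of nuclear receptors.

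The target was checked first. In C the Trp53inp2 signals were 11.06, 11.19 and 11.15, and in SKM-KO they were 8.58, 8.79 and 8.99, a fall of 5.08-fold (limma adjusted p 3.76e-06). Its group means were 11.22 in Wt and 11.16 in SKM-Tg, and those groups overlapped. Where this probe set lies relative to the transgene is not given, so it is no check of the SKM-Tg label. The 8 skeletal muscle markers were bright on every array, with mean log2 signals of 12.02 to 12.28. The array named Wt 2 stood apart, with a mean correlation of 0.930 with the other arrays, whereas the other 12 lay between 0.972 and 0.980. It held the lowest value of 9 members and the highest value of 9 others, 30% each, against 23.8% and 39.3% of all genes.

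**Figure D1:**
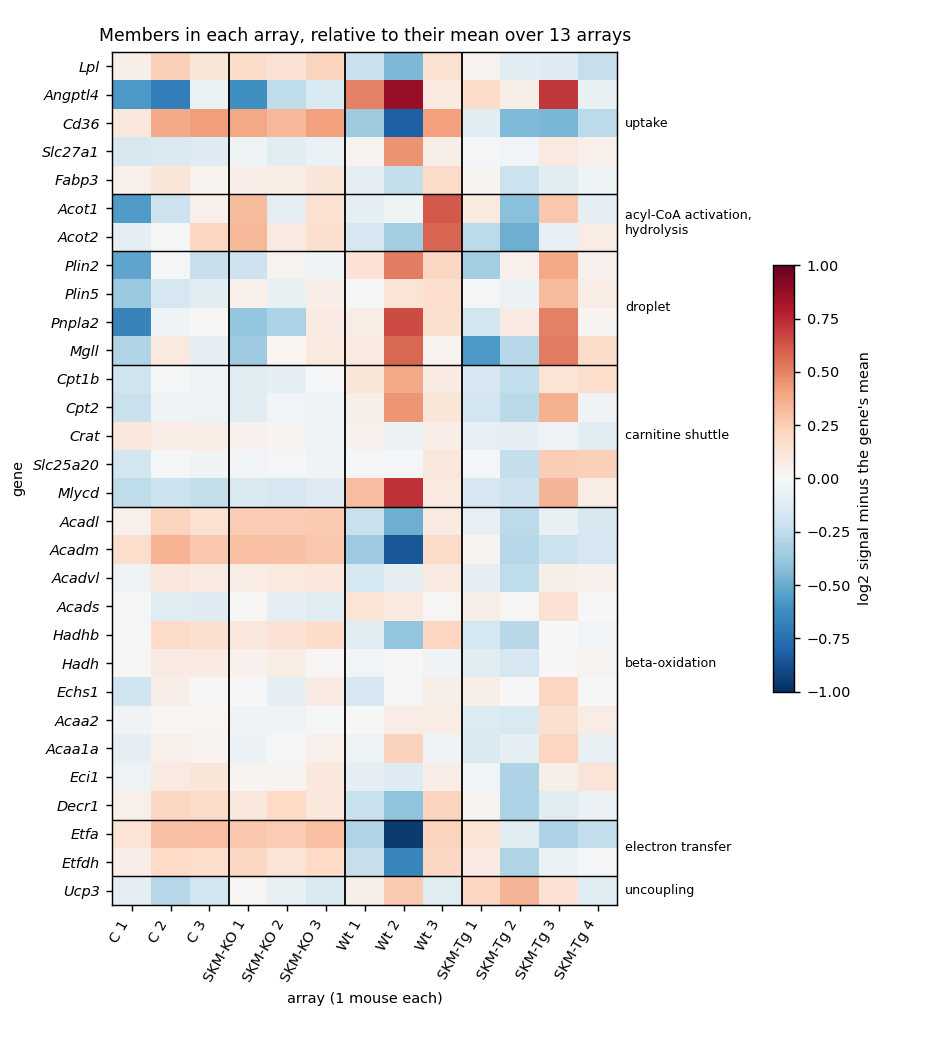
Log2 signal of the 30 measured members (rows, grouped by role) in each of the 13 arrays (columns, grouped by line), as the difference from each gene's mean over all arrays; the colour scale ends at -1 and 1. Wt 2 has the deepest blue and red cells, with Etfa, Cd36 and Acadm low and Angptl4, Mlycd and Pnpla2 high.

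The spread of the members differed between groups. Their median SD was 0.043 in SKM-KO, 0.094 in C, 0.17 in SKM-Tg and 0.23 in Wt, while that of all genes was 0.098, 0.096, 0.17 and 0.25 in the same order. In SKM-KO the members varied less between mice than genes at large. The highest SD of a member in Wt was 0.62, for the fatty acid transporter Cd36, and the lowest was 0.014, for the dehydrogenase Hadh.

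The promoters that RefSeq (GRCm38.p6) gives for the members, each a window that spans a start site and lies mostly before it, were searched on both strands for 3 nuclear receptor motifs. There were 33 promoters for 28 listed members, and none for Lpl, Angptl4, Cpt1b, Crat, Acaa2 and Decr1. The full PPAR direct repeat, in which the hexamer AGGTCA follows itself after 1 free base, was in 0 of the 33 and in 0.0396% of all 32851 promoters. The motif TCAAGGTCA of the oestrogen-related receptors was in 0 of the 33 and in 0.423% of all. The hexamer AGGTCA alone, which the other motifs contain, was in 8 of the 33 (24.2%), from 7 genes, and in 16.3% of all. A match describes letters, not a bound site. Whether a hexamer goes with any value below was not tested. The stretches of 5 of the 7 genes are shown 5′ to 3′, with the hexamer or its reverse complement TGACCT in capitals and the strand of the gene in brackets.
Plin5, chr17:56117683-56117748 (-): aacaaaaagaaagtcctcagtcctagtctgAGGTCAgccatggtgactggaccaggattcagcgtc
Plin2, chr4:86670242-86670307 (-): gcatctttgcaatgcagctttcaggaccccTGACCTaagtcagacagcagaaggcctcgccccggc
Cd36, chr5:17836089-17836146 (-): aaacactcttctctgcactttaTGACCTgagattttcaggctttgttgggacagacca
Acadm, chr3:153944857-153944893 (-): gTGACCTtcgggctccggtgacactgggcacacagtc
Ucp3, upstream match, chr7:100472812-100472877 (+): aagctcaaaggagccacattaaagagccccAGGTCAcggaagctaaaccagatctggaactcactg
Ucp3, downstream match, chr7:100472917-100472982 (+): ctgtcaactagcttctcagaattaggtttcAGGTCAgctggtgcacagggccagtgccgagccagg
The hexamer begins 170 bases before the start site in Plin5, 218 in Plin2, 228 in Cd36, 249 in Acadm, and 149 and 44 in Ucp3. Echs1 and Acadvl have 1 each, at 83 and 87 bases. In another Plin5 window, with a different start site, a hexamer begins 13 bases past the start. Its coordinates were not kept, so it may be the same hexamer counted from another start.

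Loss of DOR was examined in SKM-KO minus C. In this comparison 0 of 30 members passed an adjusted p of 0.05 in limma, with p-values adjusted by Benjamini-Hochberg over all 10411 genes, and the background was 0.00961%, which is Trp53inp2 alone. The number of members with an unadjusted p under 0.05 was also 0, against 0.557% of all genes. Most differences were small and positive, in 25 of 30 members against 54% of all genes, with a median of 0.038 against 0.0077. The 95% intervals had lower ends from -0.52 (Mgll) to -0.029 (Plin5) and upper ends from 0.10 (Crat) to 0.85 (Acot1). In 4 members every SKM-KO array lay above every C array (background 4.66%), and in 1 member below (background 2.83%).

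The count of positive differences changed most with 1 control mouse. Without C 1 it was 13 of 30 and the median was -0.0099. C 1 lay below the mean of its group in 27 of 30 members (90%), against 54.8% of all genes, and its median difference from the mean of C 2 and C 3 was -0.15, against -0.020 for all genes. It held the lowest of the 13 values in 7 members (23.3%), against 9.95% of all genes. All 7 slow fibre markers (Myh7, Tnni1, Tnnt1, Myl2, Myl3, Atp2a2, Tnnc1) were lower in C 1 too, with a mean log2 signal of 10.63 against 11.85 in C 2 and 11.62 in C 3, and 11.39 to 11.85 in SKM-KO. Their part in the result was not tested. Because whole muscle was measured, fewer cells of a type and less RNA per cell cannot be told apart.

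Among the 4 droplet genes, differences between SKM-KO and C were positive in all 4, with a median of 0.10, and none passed. Plin5 encodes the perilipin that coats droplets of oxidative tissues and ties them to mitochondria. Its log2 signals were 10.31, 10.52 and 10.58 in C and 10.73, 10.61 and 10.75 in SKM-KO. The groups did not overlap, with C 1 the lowest. The difference was 0.23 (SE 0.12, 95% interval -0.029 to 0.48), with an unadjusted limma p of 0.0773 and an adjusted p that rounds to 1, and without C 1 it was 0.15. A second Plin5 probe set gave 0.27. Plin2, the perilipin found on droplets of most cells, had 8.19, 8.71 and 8.49 in C and 8.51, 8.76 and 8.68 in SKM-KO. These groups overlapped, and the difference of 0.18 (SE 0.18, interval -0.21 to 0.57) was as large as its error. Without C 1 it was 0.044. Pnpla2 (adipose triglyceride lipase) differed by 0.027 and Mgll (monoacylglycerol lipase) by 0.019, and without C 1 they differed by -0.19 and -0.083. Without that array 2 of the 4 droplet differences were thus positive, with a median of -0.019.

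Both measured thioesterases, which cleave acyl-CoA back to free fatty acid and CoA, had positive differences. Acot1 had 7.75, 8.11 and 8.37 in C and 8.63, 8.22 and 8.47 in SKM-KO. Its groups overlapped, and the difference of 0.37 (SE 0.22, interval -0.12 to 0.85, unadjusted limma p 0.129) was the largest among the members. Without C 1 the difference was 0.20. The mitochondrial Acot2 differed by 0.16 (SE 0.21) and gave 0.16 on a second probe set. Acot1 and Acot2 are close paralogues, and probes may not separate them fully.

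The 5 uptake genes had differences from 0.019 to 0.10. Slc27a1, a fatty acid transport protein, had 9.30, 9.32 and 9.33 in C and 9.42, 9.36 and 9.39 in SKM-KO. Its groups did not overlap, but the difference was 0.072 (SE 0.11). Lpl, the lipase at the capillary wall, differed by 0.045, its inhibitor Angptl4 by 0.10, Cd36 by 0.071 and the carrier Fabp3 by 0.019. In the carnitine shuttle the signs were mixed, 4 positive and 1 negative. Mlycd, which removes the malonyl-CoA that blocks carnitine palmitoyltransferase, had 9.57, 9.60 and 9.58 in C and 9.67, 9.65 and 9.69 in SKM-KO. All SKM-KO arrays were above all C arrays. The difference of 0.085 carried an SE of 0.16, since the fit pools the spread of all 4 groups and the SD of Mlycd was 0.018 in C but 0.32 in Wt. Crat, carnitine acetyltransferase, had 10.26, 10.23 and 10.22 in C and 10.20, 10.18 and 10.12 in SKM-KO. It was the only member with every SKM-KO array below every C array, and its difference was -0.072 (SE 0.080, interval -0.25 to 0.10). The rate-setting Cpt1b differed by 0.010, Cpt2 by 0.047 and the carnitine-acylcarnitine carrier Slc25a20 by 0.058.

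In beta-oxidation 7 of 11 differences were positive, with a median of 0.022. Acadl, the long-chain acyl-CoA dehydrogenase, had 11.26, 11.44 and 11.37 in C and 11.47, 11.46 and 11.47 in SKM-KO. The SKM-KO arrays lay narrowly above all C arrays, with a difference of 0.11 (SE 0.13, interval -0.17 to 0.39). Acaa2, the mitochondrial thiolase, had 11.58, 11.64 and 11.64 in C and 11.59, 11.58 and 11.60 in SKM-KO, a difference of -0.032 (SE 0.099). Those groups overlapped at C 1. Hadh, the medium- and short-chain hydroxyacyl-CoA dehydrogenase, had 11.45, 11.52 and 11.53 in C and 11.48, 11.52 and 11.45 in SKM-KO. Decr1, which handles unsaturated chains, had 10.12, 10.28 and 10.26 in C and 10.18, 10.27 and 10.18 in SKM-KO. Hadh differed by -0.015 and Decr1 by -0.0074, both with overlapping groups, and each changed sign when single arrays were left out. The other 7 members of the group, Acadm, Acadvl, Acads, Hadhb, Echs1, Acaa1a and Eci1, lay between -0.0049 (Acaa1a) and 0.044 (Acadvl). Electron transfer flavoprotein alpha, Etfa, and its ubiquinone oxidoreductase Etfdh differed by 0.031 and 0.035. Without C 1, 2 of 11 beta-oxidation, 0 of 2 electron transfer and 2 of 5 carnitine shuttle differences were positive, while both thioesterases and 4 of 5 uptake genes stayed so. In the full comparison the uncoupling protein Ucp3 differed by 0.11 (SE 0.13).

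**Figure D2:**
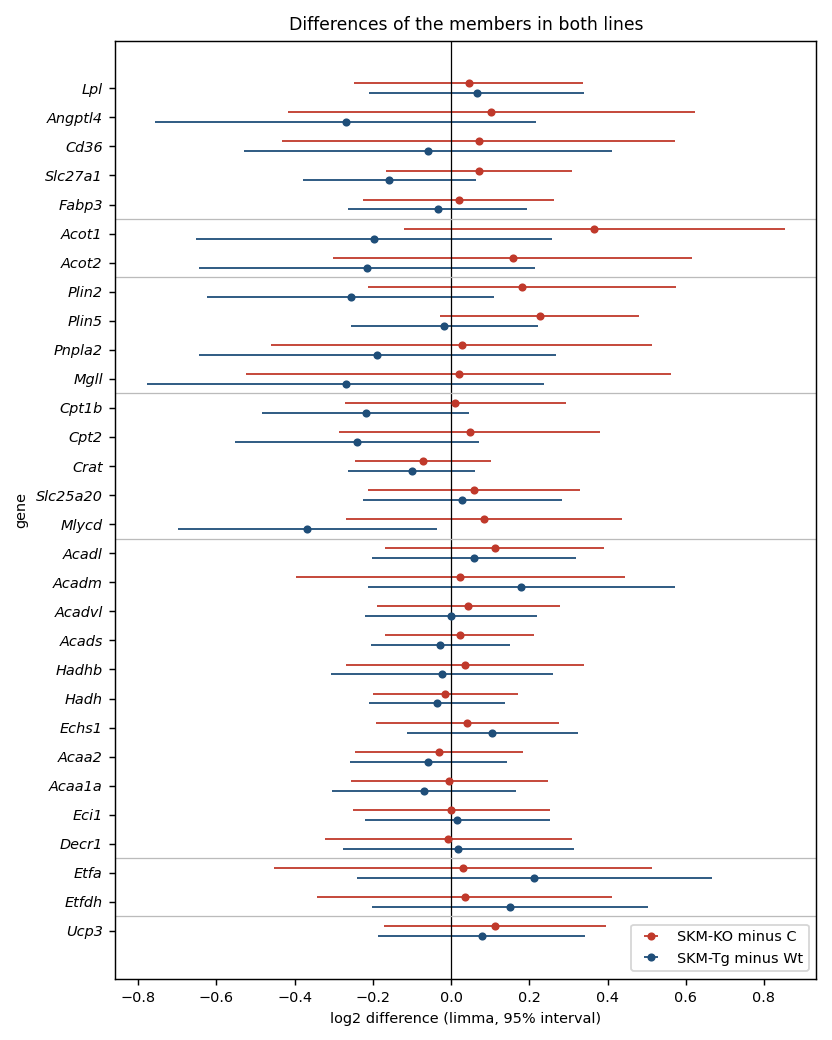
Log2 difference (points) with its 95% interval from limma (bars) for each of the 30 members, SKM-KO minus C in red and SKM-Tg minus Wt in blue, with grey lines between the roles. Most red points lie just right of 0 and the blue points of the droplet and carnitine shuttle genes lie mostly left of it; the interval of Mlycd in SKM-Tg minus Wt, -0.70 to -0.037, is the only one that leaves out 0.

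Gain of function was examined in SKM-Tg minus Wt. Here 0 of 30 members passed in limma, against a background of 0%, and 1 member had an unadjusted p under 0.05, against 6.89% of all genes. Differences were positive in 10 of 30 members, against 37.8% of all genes, and the median of -0.035 lay close to the -0.051 of all genes. The groups overlapped in all 30 members, while 1.18% of all genes had every SKM-Tg array above every Wt array and 2.79% below. Intervals had lower ends from -0.78 (Mgll) to -0.11 (Echs1) and upper ends from -0.037 (Mlycd) to 0.67 (Etfa). The number of positive differences was 5 without Wt 2, 16 without Wt 3 and 16 after quantile normalization, which moved the median of the members to 0.010, so no direction was settled for the members together.

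The carnitine shuttle held the member with the smallest p. Mlycd had 10.13, 10.54 and 9.92 in Wt and 9.65, 9.61, 10.16 and 9.89 in SKM-Tg. SKM-Tg 3 exceeded 2 of the Wt arrays and was the only SKM-Tg array above Wt 3. The difference was -0.37 (SE 0.15, interval -0.70 to -0.037), with an unadjusted limma p of 0.0320 and an adjusted p of 0.702. With single arrays left out it ran from -0.51 to -0.19, and with array quality weights it was -0.41 with an adjusted p of 0.0148, where Wt 1 weighed 7.23 and Wt 2 0.147. Cpt1b had 10.93, 11.19 and 10.89 in Wt and 10.64, 10.56, 10.95 and 10.98 in SKM-Tg. SKM-Tg 1 and SKM-Tg 2 lay below all Wt arrays, while the other 2 lay among them. That difference was -0.22 (SE 0.12, interval -0.48 to 0.046). Cpt2, the inner-membrane transferase, had 9.22, 9.60 and 9.27 in Wt and 8.96, 8.88, 9.51 and 9.12 in SKM-Tg, and the difference was -0.24 (SE 0.14). SKM-Tg 3 was again the high array of its group. Crat differed by -0.10 (SE 0.075) and Slc25a20 by 0.029.

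All 4 droplet genes had negative differences in SKM-Tg minus Wt, with a median of -0.22, and none passed. Plin2 differed by -0.26 (SE 0.17), Mgll by -0.27 (SE 0.23), Pnpla2 by -0.19 (SE 0.21) and Plin5 by -0.017 (SE 0.11). Without Wt 2 these became -0.14, -0.099, -0.012 and 0.0034, so 3 of 4 were negative with a median of -0.056. The thioesterases Acot1 and Acot2 differed by -0.20 and -0.21, each by about its error, and both were positive without Wt 3. Among the uptake genes, Slc27a1 had 9.50, 9.91 and 9.52 in Wt and 9.44, 9.43, 9.55 and 9.51 in SKM-Tg. Only Wt 2 stood clear of the SKM-Tg arrays. The difference of -0.16 (SE 0.10) was -0.024 when that array was left out, and 2 probe sets of the gene differed in sign. Angptl4 differed by -0.27 (SE 0.22), Cd36 by -0.059, Fabp3 by -0.035 and Lpl by 0.065.

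On the positive side, 3 of the 4 members with the smallest p had their lowest value in Wt 2. Etfa had 10.66, 10.00 and 11.18 in Wt and 11.09, 10.85, 10.64 and 10.71 in SKM-Tg. Its Wt arrays spread wider than the SKM-Tg arrays and enclosed them. The difference was 0.21 (SE 0.21, interval -0.24 to 0.67, limma adjusted p 0.748), and without Wt 2 it was -0.094. Acadm, the medium-chain acyl-CoA dehydrogenase, had 10.40, 9.92 and 10.95 in Wt and 10.79, 10.47, 10.55 and 10.59 in SKM-Tg. It differed by 0.18 (SE 0.18) and, without Wt 2, by -0.074. Etfdh had 9.99, 9.57 and 10.43 in Wt and 10.31, 9.92, 10.16 and 10.21 in SKM-Tg, a difference of 0.15 (SE 0.16) that became -0.063 without Wt 2. In all 3 the direction thus depended on 1 array. Echs1, the enoyl-CoA hydratase, had 9.99, 10.14 and 10.21 in Wt and 10.21, 10.15, 10.37 and 10.16 in SKM-Tg. It varied little, and its difference of 0.11 (SE 0.10) ran from 0.043 to 0.15 with single arrays left out. In beta-oxidation as a whole 5 of 11 differences were positive, from -0.070 (Acaa1a) to 0.18 (Acadm), and Ucp3 differed by 0.079.

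**Figure D3:**
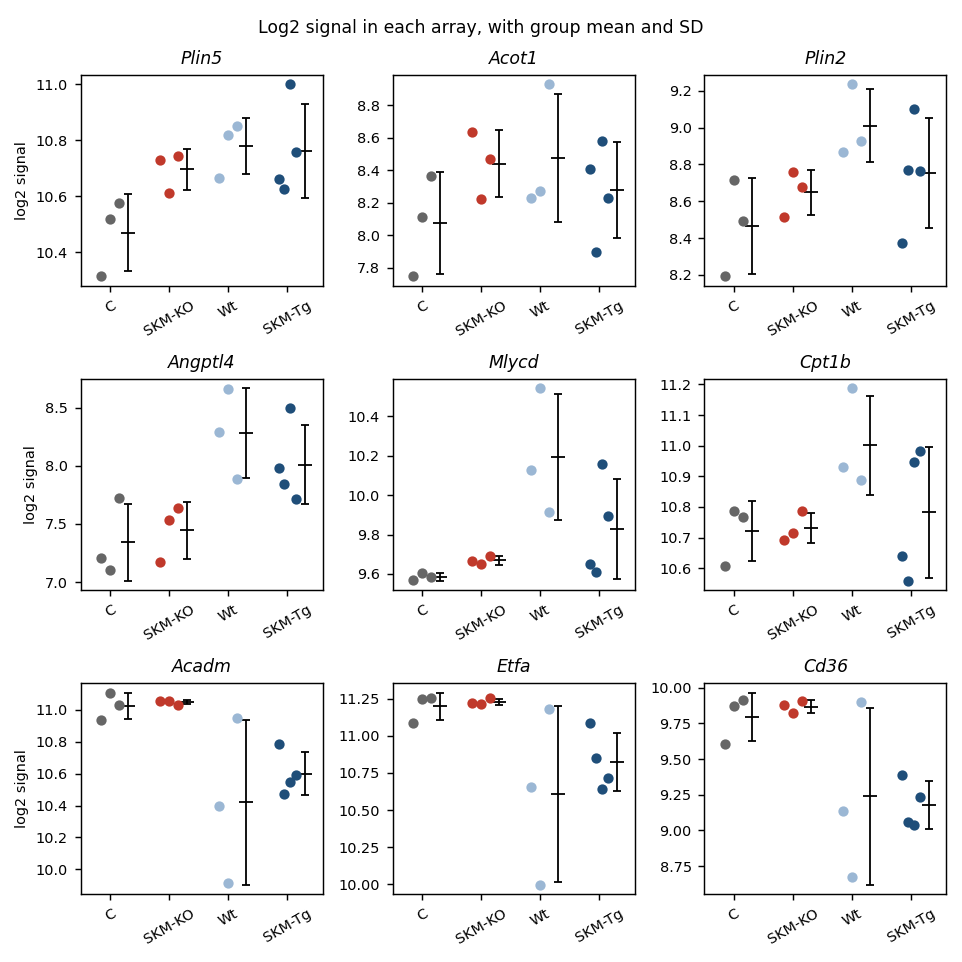
Log2 signal of 9 members in each array (points, grouped as C, SKM-KO, Wt and SKM-Tg), with the group mean (horizontal tick) and SD (bar) beside the points; each panel has its own axis, which does not start at 0. Plin5 and Mlycd separate SKM-KO from C, and Acadm, Etfa and Cd36 have Wt arrays spread over most of the panel.

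The effects in the 2 lines were then compared directly, as SKM-Tg minus Wt less SKM-KO minus C. In this difference of effects 0 of 30 members passed in limma (background 0.0192%), and 0 had an unadjusted p under 0.05 (background 3.1%). It was positive in 7 of 30 members, against 38.3% of all genes, with a median of -0.053 against -0.060. The count was 16 after quantile normalization, 13 after cyclic loess, 12 without C 1, 4 without Wt 1, 3 without Wt 2, 13 without Wt 3 and 11 without SKM-Tg 2. Mlycd had the smallest p: its effect in SKM-KO was 0.085 and that in SKM-Tg -0.37, a difference of -0.45 (SE 0.22, interval -0.94 to 0.031, unadjusted limma p 0.0644, adjusted p 0.989). Acot1 followed with 0.37 and -0.20, a difference of -0.56 (SE 0.31, interval -1.23 to 0.10). Plin2 had 0.18 and -0.26, a difference of -0.44 (SE 0.25), and Slc27a1 0.072 and -0.16, a difference of -0.23 (SE 0.15). The electron transfer genes and Acadm pointed the other way, with 0.18 for Etfa, 0.16 for Acadm and 0.12 for Etfdh, and each became negative without Wt 2. Echs1 differed by 0.064. By role, the difference was negative in 4 of 4 droplet, 5 of 5 carnitine shuttle and 2 of 2 thioesterase genes, none past the threshold. It was also negative in 6421 of all 10411 genes. Without C 1 the difference was negative in 3 of 4 droplet genes, and without C 1, Wt 3 or SKM-Tg 2 in 4 of 5 carnitine shuttle genes.

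Wt minus C sets the control groups beside each other. It shares arrays with both comparisons above, so its values are not independent of theirs. In limma 0 of 30 members passed (background 0.00961%), while an unadjusted p under 0.05 was reached by 6 members with more and 5 with less signal in Wt, 11 in all, against 27.8% of all genes. Differences were positive in 16 of 30 members, against 58.8% of all genes. All Wt arrays lay above all C arrays in 10 members (background 15.4%) and below in 2, Hadh and Crat (background 8.51%). The members that separated upward were Angptl4, Mlycd, Plin2, Plin5, Pnpla2, Slc27a1, Cpt1b, Cpt2, Acads and Slc25a20.

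The roles differed in sign between the controls. Droplet genes were higher in Wt in 4 of 4 (median 0.43) and shuttle genes in 4 of 5 (median 0.28), while beta-oxidation genes were higher in 4 of 11 (median -0.11) and electron transfer genes in 0 of 2 (median -0.48). Without C 1 the droplet median was 0.27. Without Wt 2 that of electron transfer was -0.22, and beta-oxidation genes were higher in 2 of 11 with a median of -0.068. Values of 4 uptake genes with an unadjusted p under 0.05 are given, chosen after their values were seen. Angptl4 had 7.21, 7.10 and 7.72 in C and 8.29, 8.66 and 7.89 in Wt. Every Wt array was above every C array, and the difference was 0.94 (SE 0.24, interval 0.42 to 1.46, limma adjusted p 0.144). In SKM-KO Angptl4 had 7.17, 7.53 and 7.63 and in SKM-Tg 7.98, 7.85, 8.50 and 7.72. SKM-Tg 4, at 7.718, lay just below C 3, at 7.720. Every other Wt or SKM-Tg array lay above every C and SKM-KO array. Cd36 had 9.60, 9.88 and 9.91 in C and 9.14, 8.68 and 9.90 in Wt, where Wt 3 lay within C, and the difference was -0.56 (SE 0.23). Slc27a1 had 9.30, 9.32 and 9.33 in C and 9.50, 9.91 and 9.52 in Wt. Those groups did not overlap, and the difference was 0.33 (SE 0.11), or 0.19 without Wt 2. Lpl had 11.79, 11.98 and 11.86 in C and 11.51, 11.29 and 11.89 in Wt, with Wt 3 again within C, and the difference was -0.31 (SE 0.14). Acadm differed by -0.60 (SE 0.19), Etfa by -0.59 (SE 0.22), Acadl by -0.35 (SE 0.13), Mlycd by 0.61 (SE 0.16) and Plin2 by 0.54 (SE 0.18). Without Wt 3, 12 members passed, Acadl, Acadm, Angptl4, Cd36, Decr1, Etfa, Etfdh, Hadhb, Lpl, Mlycd, Plin2 and Slc27a1, and so did 4119 of all genes. With array quality weights 18 members and 5787 of all genes passed. Without Wt 2, 0 members passed in limma, and an unadjusted p under 0.05 was reached by 6 members and 976 of all genes, against 2891 with every array. Cd36 then differed by -0.28, Etfa by -0.28, Acadm by -0.35, Angptl4 by 0.75 and Lpl by -0.18.

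The Wt arrays differed most between Wt 2 and Wt 3. Wt 2 was lower than Wt 3 by more than 0.5 in 10 members, 33.3% against 19.4% of all genes, and higher by more than 0.5 in 3, 10% against 26.9%. The largest gaps were -1.23 for Cd36, -1.18 for Etfa and -1.03 for Acadm, and on the other side 0.77 for Angptl4, 0.63 for Mlycd and 0.54 for Mgll. SKM-Tg 2 lay below the mean of its group in 27 of 30 members, against 52.7% of all genes. It held the lowest of the 13 values in 8 members (26.7%), against 6.86% of all genes.

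**Figure D4:**
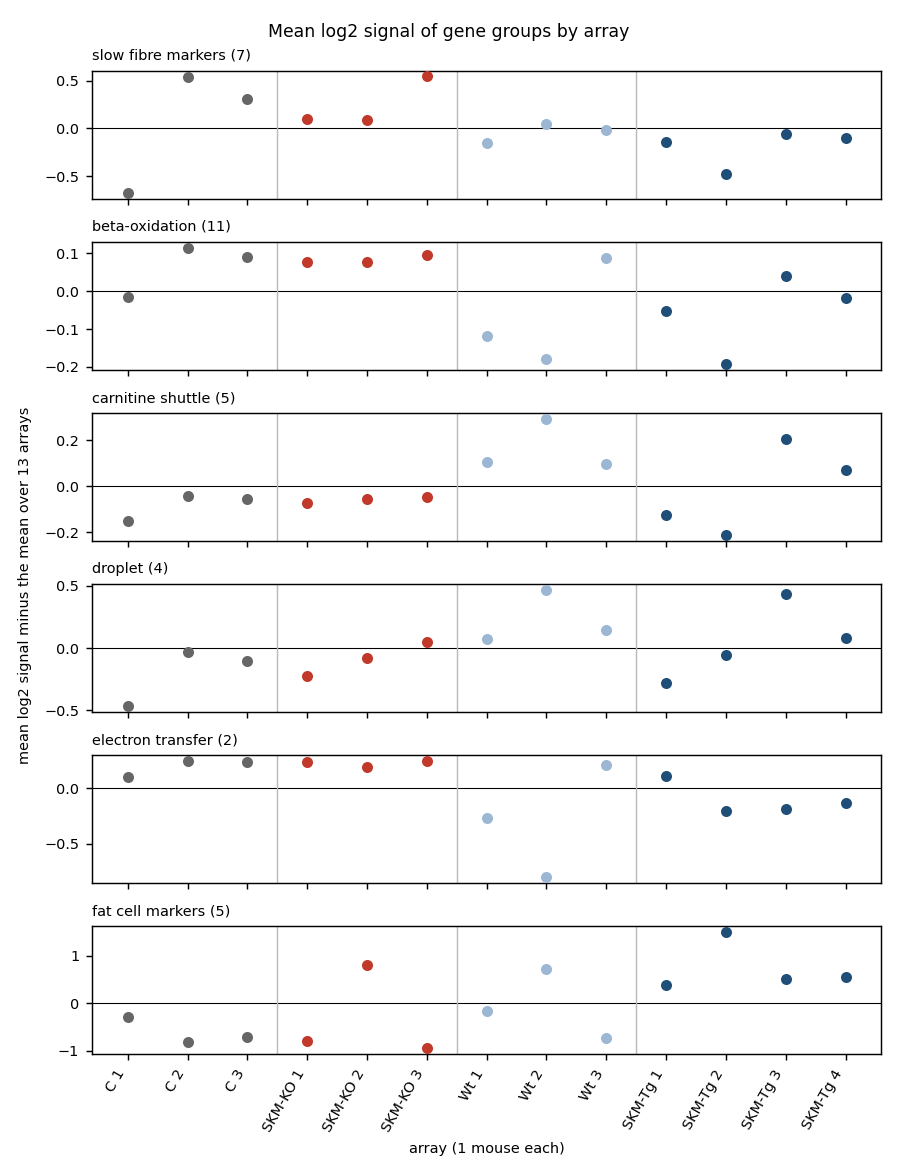
Mean log2 signal of slow fibre markers, 4 roles of the members and fat cell markers in each array (points, coloured by group), as the difference from the mean over the 13 arrays; the number of genes is in brackets and each panel has its own axis. C 1 is lowest for slow fibre markers and droplet genes, Wt 2 is lowest for electron transfer genes and highest for droplet and carnitine shuttle genes, and SKM-Tg 2 is highest for fat cell markers.

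A list of 62 other genes of fatty acid metabolism, from receptors and coactivators to triglyceride synthesis, had 54 genes tested. In SKM-KO minus C 0 passed in limma and 0 had an unadjusted p under 0.05, against 0.557% of all genes. Differences were positive in 41 of 54 (75.9%), against 54% of all genes, with a median of 0.064 against 0.0077. Acad11, of the acyl-CoA dehydrogenase family, differed by 0.18 (SE 0.11) with no overlap between groups, the peroxisomal Ehhadh by 0.26 (SE 0.19), Cidea by 0.34 (SE 0.26) and the phosphatidate phosphatase Lpin1 by 0.13 (SE 0.11). Cidea, a droplet protein of fat cells, was highest of all 13 arrays in SKM-KO 2, while the other SKM-KO arrays had 5.93 and 5.97. In SKM-Tg minus Wt 0 passed in limma and 2 had an unadjusted p under 0.05, against 6.89% of all genes. Positive differences numbered 21 of 54 (38.9%), against 37.8% of all genes. Ppargc1b, a coactivator of PPAR and oestrogen-related receptors, had 7.60, 7.73 and 7.87 in Wt and 7.05, 6.86, 7.56 and 7.48 in SKM-Tg. All SKM-Tg arrays were below all Wt arrays, with a difference of -0.50 (SE 0.17, interval -0.87 to -0.13, unadjusted limma p 0.0115, adjusted p 0.702). Its C arrays had a mean of 7.06, below every Wt array. The transporter Slc27a4 differed by -0.39 (SE 0.15), the lipase activator Abhd5 by -0.22 (SE 0.11) and the acyl-CoA synthetase Acsl3 by -0.40 (SE 0.21). For the difference of effects the 4 smallest p-values were those of Ppargc1b (-0.64, SE 0.25), Slc27a4 (-0.48, SE 0.23), Acsl3 (-0.55, SE 0.31) and Fitm2 (-0.35, SE 0.21), none past the threshold. In Wt minus C they were those of Ehhadh (0.93), Ppargc1b (0.67), Acsl4 (-0.77) and Ppard (0.73), each with an adjusted p between 0.144 and 0.145.

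Markers of other cells were examined in the same arrays. Of 9 listed fat cell markers 5 were measured (Adipoq, Retn, Scd1, Fabp4, Car3). Between SKM-Tg and Wt their differences were positive in 5 of 5, against 37.8% of all genes, with a median of 0.86. None passed. Adipoq had the largest difference, 1.81 (SE 0.92), while Car3 differed by 0.051 (SE 0.10) and Fabp4 by 0.023 (SE 0.13). Car3 and Fabp4 were lowest of all 13 arrays in Wt 2, at 11.51 and 11.23, and their positive sign rested on it. Adipoq, Retn and Scd1 had their highest Wt values in that array, 8.75, 7.98 and 10.14. They also varied most between arrays, so they weigh most in the marker mean. The mean log2 signal of the 5 markers was 9.60 to 10.71 in SKM-Tg, 8.48 to 9.92 in Wt, 8.38 to 8.93 in C and 8.25 to 10.01 in SKM-KO. The defining marker Adipoq had 8.20 in SKM-KO 2 and 4.75 and 4.49 in the other SKM-KO arrays. Across the 13 arrays the mean fat marker signal was compared with each of the 30 members by permutation tests, adjusted over these 30 relations. The permutations exchange arrays of all 4 groups, so these p-values also hold the differences between lines. For Pearson's r 10 members reached an adjusted p under 0.05, and for Spearman's rho 6 did. The relation was not computed for other genes, so no share of all genes can be set beside these counts. The 10 members were chosen by r over all 13 arrays, so their signs within a line are no separate check. Within Wt and SKM-Tg all 10 kept the sign of r, with sizes of 0.54 to 0.86 (n = 7). Within C and SKM-KO 8 of the 10 did, with sizes of 0.033 to 0.55 over all 10 (n = 6), and Crat and Decr1 changed sign. Cd36, itself abundant in fat cells, had r = -0.73 (permutation p 0.00536, adjusted 0.0377) and rho = -0.75 (permutation p 0.00477, adjusted 0.0402). Without SKM-Tg 2 and SKM-KO 2, the arrays farthest from the median, r was -0.91. Within the arrays of C and SKM-KO it was -0.37 (n = 6), and within those of Wt and SKM-Tg -0.69 (n = 7). Ucp3 had r = 0.74 (permutation p 0.00466, adjusted 0.0377) and rho = 0.71 (permutation p 0.00771, adjusted 0.0402), and was the only one of the 10 with a positive sign. Its r was 0.74 without the same arrays, 0.33 within C and SKM-KO and 0.74 within Wt and SKM-Tg. Both relations were weaker within the line of C and SKM-KO, and their part in the group differences was not tested.

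For the other lists, in SKM-KO minus C the slow fibre markers were positive in 7 of 7 (median 0.18), macrophage markers in 7 of 7 (median 0.20), endothelium markers in 3 of 10, and the liver markers were negative in 5 of 5 (median -0.80). Of all genes, 54% were positive there, with a median of 0.0077. The sign of the slow fibre markers rested on C 1. Their mean log2 signal was 10.63 in that array, 11.85 in C 2, 11.62 in C 3 and 11.39 to 11.85 in SKM-KO. In SKM-Tg minus Wt the slow fibre markers were negative in 7 of 7 (median -0.14), macrophage markers in 6 of 7, endothelium markers in 8 of 10 and skeletal muscle markers in 7 of 8. Of all 10411 genes, 6471 were negative there too, with a median of -0.051, or -0.017 after quantile normalization. No gene of these lists passed the threshold in either comparison, and their part in the values of the fatty acid genes was not tested.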

How the data were processed

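The authors deposited log2 signals of 45141 probe sets, made with RMA per the submitters' processing notes, which give no version. RMA corrects background, normalizes arrays and summarises probes. Per the labels' protocols, 25 ng of total RNA per mouse was amplified isothermally and labelled with biotin. No scan date or batch is given in the sources used here.

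From these values, 104 control probe sets were set aside, and 28898 probe sets with exactly 1 gene symbol gave 17097 genes. Another 551 had several symbols and 15588 none. Each gene took its brightest probe set, and genes with a mean of at least 4.90, the median of the probe set means, were tested. All 13 arrays were fitted in limma 3.58.1 (R 4.3.3) with 1 mean per group and eBayes (9 residual degrees of freedom). Tests were two-sided, with Benjamini-Hochberg adjustment and a threshold of 0.05. Errors are standard errors of the fit unless marked SD. Of single comparisons, an exact permutation test could not go below p = 0.1 (3 against 3) or 0.0571 (4 against 3). Mice are read as separate animals from the labels. Correlations used 100000 permutations.

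Of 14 members with several probe sets past the filter, 10 had the same sign on all of them in SKM-KO minus C, 9 in SKM-Tg minus Wt, 9 in the difference of effects and 12 in Wt minus C. Members, lists and the naming rule (up to 4 members per direction with the smallest p) were chosen with earlier results of these data known. Alternatives covered normalization, filter, probe set rule, eBayes options, array weights, a separate fit and single arrays left out.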

Additional observations from a re-analysis of the deposited data

How the results depend on the processing

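Single arrays left out are given below. The remaining alternatives include 1 without both Wt 2 and SKM-Tg 3. Over these, 224 of 232 alternative values of the named members kept the direction and side of the threshold. The 6 values that changed direction were all in the alternative without both arrays. Of the summary values, 108 of 117 moved by less than 1.5 times (counts) or the spread between mice (medians). After quantile normalization 16 members had a positive difference in SKM-Tg minus Wt and 16 in the difference of effects, and after cyclic loess 13 in the latter. With array quality weights 1 member passed in SKM-Tg minus Wt (Mlycd, -0.41) and 1 in the difference of effects (Mlycd, -0.49), and 18 passed in Wt minus C, whose member median was -0.054; of all genes 1487, 227 and 5787 passed, against 0, 2 and 1 without weights. Leaving out both Wt 2 and SKM-Tg 3, an alternative added after seeing the data, left 2 positive members in SKM-Tg minus Wt and 2 in the difference of effects. Etfa was then -0.034 and -0.064, Acadm -0.056 and -0.080, and Etfdh -0.066 and -0.10 in these comparisons. The cause was not tested.

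With single arrays left out, positive members ranged from 13 to 27 in SKM-KO minus C, from 5 to 16 in SKM-Tg minus Wt and from 3 to 13 in the difference of effects. Members past the threshold ranged from 0 to 12 in Wt minus C, and of all genes 30 passed in SKM-Tg minus Wt and 4119 in Wt minus C without Wt 3. In SKM-Tg minus Wt, Etfa ranged from -0.094 to 0.50, Acadm from -0.074 to 0.44 and Etfdh from -0.063 to 0.37. In the difference of effects they ranged from -0.12 to 0.47, -0.097 to 0.42 and -0.097 to 0.33. In SKM-KO minus C, Hadh ranged from -0.040 to 0.00063 and Decr1 from -0.056 to 0.022.

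No paired analysis was possible, because replicate numbers only name the arrays and no label links mice across groups. The labels give each mouse a number of its own, some close to one another across groups, but do not say that close numbers mark a litter, cage or day. A separate fit could not be fitted for the difference of effects, which needs all 4 groups. With 3 or 4 mice a group, the intervals, not signal over background, limit these members, which all lie above the median of the probe set means.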
